A study of Mus musculus with 20 samples.

Results

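The 35 genes described here encode the folding machinery of the endoplasmic reticulum (ER) and the unfolded protein response (UPR). They were chosen by name, and each was matched by its gene symbol to a single Ensembl identifier in a table of 55487 genes. All 35 had enough counts to be among the 12799 genes tested. By role they comprised 10 chaperones and co-chaperones of the ER lumen, 6 thiol oxidoreductases and prolyl isomerases, 3 genes of the glycoprotein folding cycle, 3 stress sensors with 1 transcription factor downstream of them, 7 genes of ER-associated degradation (ERAD) and 5 genes of the translocation channel and its associated complex. RNA was sequenced from 20 cultures of BV-2, an immortalised mouse microglial cell line of wild-type genotype, in 4 groups of 5 cultures. Control (young) BV-2 microglia were low-passage cells, and aged BV-2 microglia had been kept in culture for a long time, frozen as aliquots and thawed together with the young cells. Each age was left untreated or exposed for 6 hours to 100 ng/ml lipopolysaccharide (LPS), a bacterial cell wall component that activates Toll-like receptor signalling. All groups shared the medium, and every batch, given by the replicate number from 1 to 5, held 1 culture of each group. The cultures came from a single line and not from separate animals, so p-values measure the spread between cultures, and the sources used here do not say whether the aged aliquots stem from more than 1 long-term cultivation.

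Secreted and membrane proteins enter the ER through the Sec61 channel, fold there with the help of chaperones, disulfide-forming enzymes and lectins, and are sent back to the cytosol for degradation when folding fails. When unfolded proteins pile up, the sensors IRE1, ATF6 and PERK are released from the chaperone BiP. They then raise the transcription of folding and degradation genes and slow protein synthesis. Microglia that respond to LPS secrete large amounts of cytokines and other proteins, which pass through this compartment.

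Libraries held 11371508 to 16829292 counts, and mitochondrial genes took 0.517% to 1.3% of them. Of 11 microglia and macrophage markers, 10 exceeded 3 counts in at least 1 library, among them *Csf1r* at 562 to 998 CPM (counts relative to library size) and *Cd68* at 753 to 1409 CPM. *Sall1* was at 0 counts in every library, and 2 further defining markers of microglia were near 0, *P2ry12* at no more than 1.87 CPM and *Cx3cr1* at no more than 1.73 CPM. Markers of astrocytes, neurons, oligodendrocytes and fibroblasts summed to at most 1.78 CPM per list in any library. The endothelial list summed to 66.2 to 111.9 CPM through *Kdr*, while *Cdh5* and *Cldn5* stayed at or below 3 counts everywhere. *Pecam1*, also in that list, exceeded 3 counts in at least 1 library. In bulk RNA, fewer cells of a kind and less RNA per cell cannot be told apart. All 6 LPS-inducible genes used as a check of the treatment passed the test as higher in both ages, with *Il1b*, *Il6*, *Cxcl10* and *Nos2* in the lead. *Nos2* had means of 1.53 and 299.6 CPM in young untreated and young LPS-treated cultures and of 0.0110 and 102 CPM in aged ones. Under LPS all 6 were lower in aged than in young cultures by the test used below.

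Short promoter elements bound by the UPR factors are shown first, because several of the genes described below share them. Promoter windows from RefSeq (GRCm38.p6), reaching from 250 bases before to 50 bases after the transcription start, were at hand for 28 of the 35 genes, and *Hyou1*, *Hspa13*, *Manf*, *Atf6*, *Derl1*, *Sec61a1* and *Ssr2* had none. The ER stress response element (ERSE), spelled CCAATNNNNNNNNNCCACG and searched on both strands, was in 8 of the 28 windows and in 37 of 27025 genes with a window (0.137%). ERSE-II, spelled ATTGGNCCACG, was in 2 of the 28 and in 12 genes overall (0.0444%). The letters TGACGTG, the core of the UPR element, were in the windows of *Hspa5* and *Txndc5* and of 601 genes overall (2.22%), without sharing a base with the other elements in these windows. The lines below give the bases around ERSE or ERSE-II on the strand of the gene, up to 25 on each side. All lie before the RefSeq transcription start, and the lines follow the order of the response to LPS in young cultures. The GENCODE annotation begins *Hspa5* earlier, at chr2:34771970, so the stretch of *Hspa5* lies after that start. Capitals mark the fixed letters of the element, and elements on the opposite strand read CGTGG and ATTGG.
Herpud1 (chr8:94386352-94386412, plus strand): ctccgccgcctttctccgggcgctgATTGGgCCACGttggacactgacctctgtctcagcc
Hspa5 (chr2:34772000-34772068, plus strand): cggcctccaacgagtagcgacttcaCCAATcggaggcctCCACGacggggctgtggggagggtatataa
Syvn1 (chr19:6046507-6046575, plus strand): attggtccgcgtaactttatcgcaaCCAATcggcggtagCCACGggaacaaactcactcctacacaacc
Creld2 (chr15:88819495-88819563, plus strand): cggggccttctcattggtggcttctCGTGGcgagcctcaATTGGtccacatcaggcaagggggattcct
Calr (chr8:84847050-84847118, minus strand): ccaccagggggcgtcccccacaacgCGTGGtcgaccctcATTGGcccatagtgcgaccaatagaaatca
Hsp90b1 (chr10:86705508-86705681, minus strand): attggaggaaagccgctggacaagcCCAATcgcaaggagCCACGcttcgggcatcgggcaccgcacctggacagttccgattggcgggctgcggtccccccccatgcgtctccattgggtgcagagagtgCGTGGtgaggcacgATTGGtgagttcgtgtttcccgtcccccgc
Canx (chr11:50325775-50325843, minus strand): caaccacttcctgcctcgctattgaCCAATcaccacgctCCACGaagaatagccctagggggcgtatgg
Pdia6 (chr12:17266466-17266534, plus strand): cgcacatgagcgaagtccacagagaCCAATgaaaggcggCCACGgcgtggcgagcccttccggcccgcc
Dnajc3 (chr14:118937802-118937870, plus strand): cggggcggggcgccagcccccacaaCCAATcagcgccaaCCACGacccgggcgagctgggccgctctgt
*Hsp90b1* carried 2 such elements in opposite orientation, and the ERSE-II of *Dnajb11* lay after the start and is not shown. Of the elements shown, the nearest to a start, in *Syvn1*, began at position -44, and the farthest, in *Hsp90b1*, at position -212. Such a match describes letters and not the binding of a factor. The genes were chosen by name as ER folding and UPR genes, so their share of elements beside that of all genes is a description and not a test.

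In young untreated cultures the 35 genes spanned a 108-fold range of CPM per kilobase of exon, the only scale on which levels of different genes were compared. *Calr*, a calcium-binding lectin chaperone, was highest at 438 ± 24.2 CPM per kilobase (SD, n = 5), followed by the disulfide isomerase *Pdia3* at 260.1 ± 12.6, both apart from the next gene in every culture. *P4hb* (216 ± 16.0), *Hspa5* (211 ± 18.9), *Hsp90b1* (188 ± 20.2) and *Canx* (181 ± 2.81) came next and overlapped with their neighbours in this order. The lowest 3 genes were the co-chaperone gene *Dnajb9* at 5.33 ± 1.07 and the sensor genes *Eif2ak3* at 4.15 ± 0.395 and *Ern1* at 4.06 ± 0.240 CPM per kilobase. Cultures overlapped between 26 of the 34 neighbouring pairs in the order, so most neighbours did not differ beyond their spread.

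The first question was how these genes answered LPS in each age. In young cultures 14 of the 35 rose and 5 fell (edgeR's quasi-likelihood test, Benjamini-Hochberg adjusted p below 0.05, n = 5 per group), which is 54.3% of them against 64.6% of all genes tested, where 31.2% were higher and 33.5% lower. In aged cultures 9 rose and 4 fell, which is 37.1% against 54.4% of all genes, with 27.5% higher and 26.9% lower. By direction, 40% of the 35 genes rose and 14.3% fell in young cultures, and 25.7% rose and 11.4% fell in aged cultures. These shares were not tested against those of all genes. Treated and untreated cultures did not overlap for 13 of the 35 genes in young (49.1% of all genes) and for 7 in aged cultures (40.1% of all genes). With the replicate number as a block, 22 passed in young (67.7% of all genes) and 16 in aged cultures (58.5% of all genes). With same-numbered cultures of 1 age paired, a fit chosen after seeing these data, 26 passed in young cultures (74.3%, against 72.0% of all genes). In that fit 25 passed in aged cultures (71.4%, against 64.1% of all genes). The lower shares than over all genes and the lower count in aged cultures thus depended on leaving this pairing out. Changes were small: the median log2 fold change of the 35 genes was 0.13 in young cultures (-0.01 over all genes) and 0.11 in aged cultures (0.00051 over all genes). A change of at least 0.5 on the log2 scale was passed by 5 genes in young cultures (35.1% of all genes) and by 3 in aged cultures (25.3% of all genes), of which 4 and 3 were higher (16.1% and 12.8% of all genes). With library sizes alone in place of TMM (trimmed mean of M values) factors, the median over all genes moved from -0.01 to -0.23 in young cultures and from 0.00051 to -0.16 in aged cultures. On that scale 3 of the 35 genes were higher and 12 lower in young cultures, where 18.8% of all genes were higher and 50% lower. In aged cultures 3 were higher and 6 lower, with 17.0% of all genes higher and 42.8% lower. Changes below are relative to the TMM centre.

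**Figure D1:**
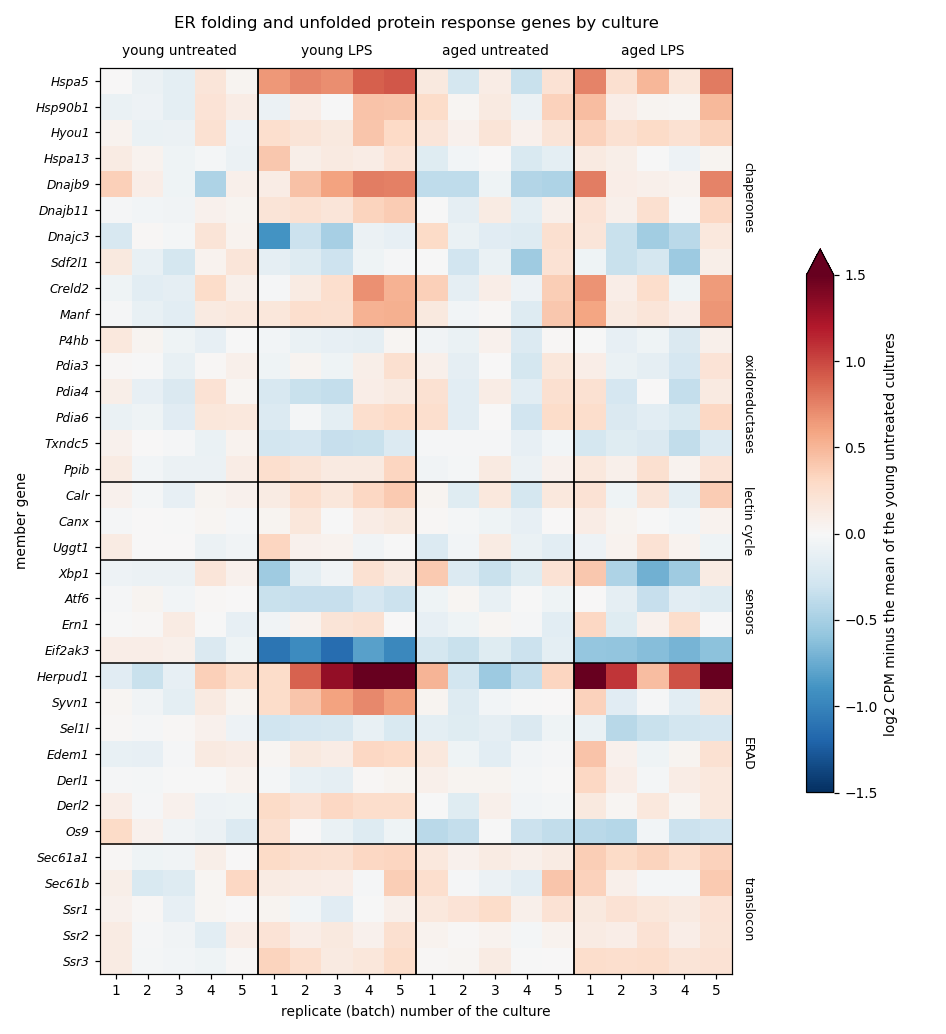
Each row is 1 of the 35 genes, grouped by role, and each column 1 culture, ordered by group and replicate number; colour gives log2 CPM minus the mean of the 5 young untreated cultures, cut at 1.5. *Herpud1* and *Hspa5* stand out as higher and *Eif2ak3* as lower in LPS-treated cultures, and whole columns, such as aged cultures 1 and 5, are higher across many rows than others of their group.

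The 2 responses share no library. Of the 35 genes, 32 had a change of the same sign in both (89.2% of all genes did), 13 passed in both ages with the same direction, 6 passed in young cultures alone, none in aged cultures alone and 16 in neither. Of the 19 genes that passed in young cultures, 17 had a smaller absolute change in aged cultures, as had 86.3% of all genes that passed in young cultures. Whether a response differed between ages was tested directly and is given below.

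**Figure D2:**
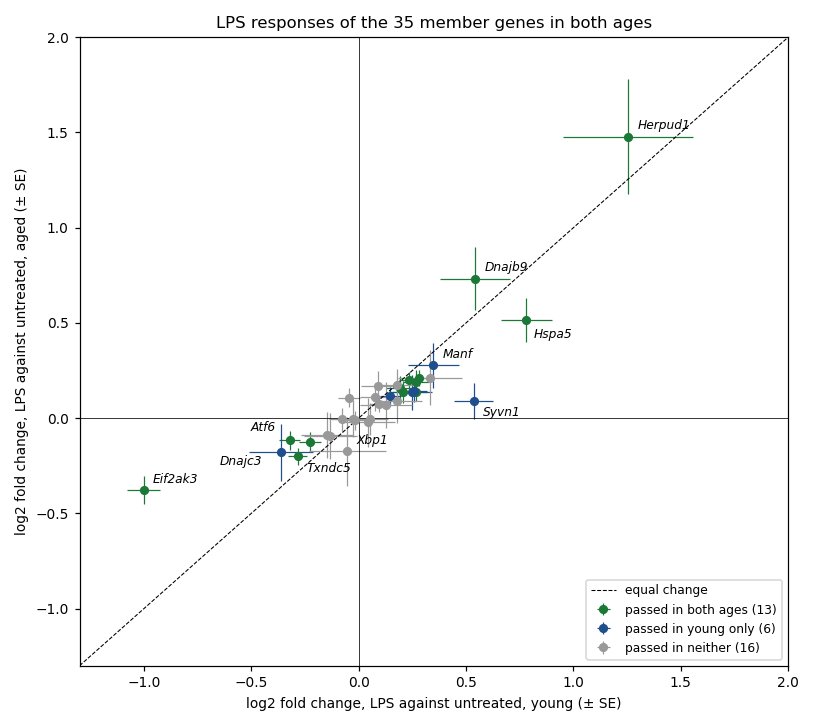
Log2 fold change after LPS in young cultures (horizontal axis) against aged cultures (vertical axis) for the 35 genes, with bars of 1 SE and the dashed line of equal change; colour tells in which age a gene passed the test. Most genes lie within 0.5 of 0 on both axes, *Syvn1* lies near 0 in aged cultures only, and *Eif2ak3* lies lowest in both.

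Among the chaperones of the ER lumen, 6 of 10 rose and 1 fell with LPS in young cultures, and 4 of 10 rose in aged cultures, which is 70.0% and 40% called against 64.6% and 54.4% of all genes. *Hspa5* encodes BiP, the Hsp70 chaperone that binds unfolded chains and holds the stress sensors inactive. Given in the order of replicates 1 to 5, as throughout, its levels were 898, 842, 802, 1012 and 917 CPM in young untreated and 1394, 1479, 1442, 1662 and 1703 CPM in young LPS-treated cultures. Every treated culture was above every untreated one, a rise of 1.72-fold (log2 fold change 0.78, SE 0.12, adjusted p = 4.05e-06). Aged untreated cultures were at 986, 745, 959, 707 and 1036 CPM and aged LPS-treated ones at 1487, 1056, 1261, 1001 and 1535 CPM. Here the groups overlapped, since treated culture 4 was below the highest untreated culture and treated culture 2 barely above it, but each treated culture was above the untreated one of its number (log2 fold change 0.52, SE 0.12, adjusted p = 7.15e-04). Between LPS-treated cultures of both ages the difference of -0.28 (SE 0.12) did not pass without the replicate block (adjusted p = 0.0806) and passed with it (adjusted p = 0.032).

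*Dnajb9* encodes ERdj4, a J-domain co-chaperone that hands clients to BiP. It measured 17.1, 14.3, 12.7, 9.63 and 14.1 CPM in young untreated and 14.4, 18.2, 20.3, 22.8 and 22.6 CPM in young LPS-treated cultures, and culture 1 was lower with LPS than without, unlike the other 4. The rise in young cultures (log2 fold change 0.54, SE 0.16, adjusted p = 0.00589) did not pass without replicate 4 (adjusted p = 0.0574) or with library sizes alone (adjusted p = 0.0821). In aged cultures the values were 10.2, 10.2, 12.8, 9.83 and 9.66 CPM untreated and 22.8, 14.3, 14.1, 13.9 and 22.5 CPM with LPS. The treated values fell into a high pair, cultures 1 and 5, and 3 cultures between 13.9 and 14.3 CPM, all above the untreated ones (log2 fold change 0.73, SE 0.17, adjusted p = 7.38e-04).

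*Dnajc3*, another J-domain co-chaperone of BiP and an inhibitor of eIF2 kinases, went the other way. Its levels were 55.9, 66.8, 64.4, 75.6 and 68.5 CPM in young untreated and 35.4, 52.8, 46.8, 61.9 and 60.3 CPM in young LPS-treated cultures, lower with LPS at each replicate number but with overlapping groups. The fall (log2 fold change -0.36, SE 0.15, adjusted p = 0.0394) was lost without replicate 2, 3 or 4 (adjusted p = 0.0522 to 0.0956). Aged cultures measured 80.7, 61.6, 58.4, 57.5 and 77.8 CPM without and 74.6, 52.4, 45.8, 49.8 and 73.5 CPM with LPS and did not pass (log2 fold change -0.18, SE 0.15, adjusted p = 0.321), although 5 of 5 numbered pairs were lower with LPS.

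*Dnajb11* (ERdj3, a further BiP partner) rose in young (log2 fold change 0.27, adjusted p = 6.41e-04) and aged cultures (log2 fold change 0.19, adjusted p = 0.0119, 0.0543 without replicate 1). *Hyou1*, the nucleotide exchange factor of BiP, rose in young cultures from 240.4 ± 24.5 to 288 ± 21.3 CPM (SD, log2 fold change 0.26, adjusted p = 8.12e-04) and passed in aged cultures only with the replicate block (log2 fold change 0.14, adjusted p = 0.0513, 0.0318 with the block). *Manf*, a secreted protein that binds BiP, did likewise, with log2 fold changes of 0.35 in young (adjusted p = 0.0136) and 0.28 in aged cultures (adjusted p = 0.0522, 0.0119 with the block). With library sizes alone the young values were 0.05 for *Dnajb11*, 0.039 for *Hyou1* and 0.13 for *Manf*, and the aged value of *Dnajb11* was 0.03, none of which passed. The gene of *Manf* overlaps exons of *Dcaf1* and *Rbm15b*, so its counts are uncertain. *Hspa13*, an Hsp70-like ATPase of microsomes, passed as higher in both ages (0.19 and 0.16), but with library sizes alone it was -0.030 and -0.0030, and single replicates decided the call. Its adjusted p rose to 0.08 without replicate 5 in young cultures and to 0.0834 to 0.159 without replicate 1, 2, 4 or 5 in aged cultures. The Hsp90 chaperone of the ER, *Hsp90b1*, had a change of 0.18 in young cultures (SE 0.11, adjusted p = 0.174) and of 0.09 in aged ones (SE 0.11, adjusted p = 0.53). *Creld2* and *Sdf2l1*, both known as ER stress-inducible, did not pass either: *Creld2* was at 0.33 in young cultures (adjusted p = 0.0535, 0.0338 with the block) and *Sdf2l1* at -0.15 (adjusted p = 0.293).

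The thiol oxidoreductases, which form and rearrange disulfide bonds, mostly kept within their spread. *P4hb*, *Pdia3*, *Pdia4* and *Pdia6* had log2 fold changes between -0.13 and 0.05 in young and between -0.09 and -0.01 in aged cultures, with the smallest adjusted p at 0.286. Those values leave room for changes of up to about -0.38 for *Pdia4* in young cultures, the lower end of 2 SE. *Txndc5*, a thioredoxin-domain member of the same family, fell in both ages. Young cultures had 268, 257, 253, 239 and 265 CPM without and 211, 214, 202, 202 and 223 CPM with LPS (log2 fold change -0.28, SE 0.04, adjusted p = 7.72e-06). The corresponding aged values were 253, 254, 253, 235 and 249 CPM and 214, 226, 220.2, 198 and 223 CPM (log2 fold change -0.20, SE 0.04, adjusted p = 5.85e-04), and in neither age did treated and untreated cultures overlap. *Ppib*, the prolyl isomerase cyclophilin B, passed as higher in young (log2 fold change 0.21, adjusted p = 0.0037) and aged cultures (log2 fold change 0.14, adjusted p = 0.0475). It stood at -0.015 and -0.022 with library sizes alone, and in aged cultures the call was lost without any 1 replicate (adjusted p = 0.0721 to 0.16).

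Of the glycoprotein folding cycle, in which calnexin and calreticulin hold glycoproteins and UGGT1 marks misfolded ones for another round, only *Calr* passed, and in young cultures (log2 fold change 0.25, SE 0.09, adjusted p = 0.0215). That call was lost without replicate 2 or 3 (adjusted p = 0.0589 to 0.0617) and with library sizes alone (0.03), and the aged value was 0.14 (adjusted p = 0.221). *Canx* was at 0.09 in young cultures (adjusted p = 0.0615, 0.0401 with the block, and -0.13 with library sizes alone) and *Uggt1* at 0.08 (adjusted p = 0.353).

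Of the 4 sensor and factor genes 2 fell in each age and none rose, against 33.5% and 26.9% of all genes lower. *Eif2ak3* encodes PERK, the ER kinase that phosphorylates eIF2α and slows translation. It stood at 26.8, 26.8, 26.3, 21.4 and 23.8 CPM in young untreated and 11.6, 12.9, 11.2, 14.1 and 12.7 CPM in young LPS-treated cultures. The groups were far apart, and the level was 2.00-fold lower with LPS (log2 fold change -1.001, SE 0.08, adjusted p = 8.73e-11), the largest fall of the 35 genes in young cultures. In aged cultures it was at 20.7, 19.7, 21.98, 19.9 and 22.6 CPM untreated and 16.6, 16.5, 16.0, 15.3 and 16.3 CPM with LPS. Those groups did not overlap either, but the fall was smaller, 1.30-fold (log2 fold change -0.38, SE 0.07, adjusted p = 1.65e-04).

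*Atf6* encodes a membrane-bound transcription factor that is released by cleavage in the Golgi. Young untreated cultures held 167, 174, 165, 172 and 170.1 CPM and young LPS-treated ones 134, 134, 134, 143 and 135 CPM, without overlap (log2 fold change -0.32, SE 0.05, adjusted p = 5.66e-06). The aged cultures measured 163, 173, 157, 169 and 162 CPM untreated and 171, 154, 134, 152 and 149 CPM with LPS, where culture 1 was higher and the other 4 lower than the untreated culture of their number. The fall in aged cultures (log2 fold change -0.12, SE 0.05, adjusted p = 0.0481) was lost without replicate 2, 3, 4 or 5 (adjusted p = 0.0859 to 0.158).

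*Ern1* encodes IRE1, whose nuclease splices the *Xbp1* mRNA. Its levels were 33.0, 33.5, 35.9, 32.8 and 30.4 CPM in young untreated and 32.0, 34.3, 37.9, 38.7 and 33.3 CPM in young LPS-treated cultures, which overlapped (log2 fold change 0.09, SE 0.08, adjusted p = 0.334). In aged cultures they were 30.3, 31.6, 33.9, 32.8 and 29.8 CPM and 41.0, 29.1, 34.6, 39.9 and 33.3 CPM, again overlapping (log2 fold change 0.17, SE 0.08, adjusted p = 0.0792). The transcription factor gene *Xbp1* was at 112, 111, 112, 134 and 123 CPM in young untreated and 81.4, 107, 114, 138 and 129.8 CPM in young LPS-treated cultures. Aged cultures ranged more widely, with 155, 102, 93.6, 104 and 137 CPM without and 156, 85.8, 71.5, 81.6 and 129 CPM with LPS. Cultures 1 and 5 were highest in both aged groups and treated and untreated cultures overlapped, and neither the change of -0.05 (SE 0.18, adjusted p = 0.816) in young nor that of -0.17 (SE 0.18, adjusted p = 0.436) in aged cultures passed. Counts per gene do not separate spliced from unspliced *Xbp1* mRNA, so the activity of IRE1 was not measured.

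ERAD held the largest rise. *Herpud1* encodes a membrane protein that organises the degradation complex around the ligase HRD1. Young untreated cultures were at 22.5, 19.9, 23.2, 32.4 and 30.3 CPM and young LPS-treated ones at 30.6, 46.5, 63.3, 87.5 and 76.6 CPM. Treated culture 1 was within the untreated range and the other 4 were above it, and the mean rise was 2.39-fold (log2 fold change 1.26, SE 0.30, adjusted p = 9.53e-04). In aged cultures the values were 36.02, 20.8, 17.2, 19.7 and 31.6 CPM and 124, 53.3, 34.8, 49.0 and 86.1 CPM, a rise of 2.78-fold (log2 fold change 1.48, SE 0.30, adjusted p = 2.54e-04). Only treated culture 3 was below the highest untreated one, and each treated culture exceeded the untreated one of its number. *Herpud1* also varied most within groups, with a mean SD of 0.52 on the log2 CPM scale, against 0.049 for *Sec61a1*, the steadiest of the 35 genes.

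*Syvn1* encodes HRD1 itself, the ubiquitin ligase of the complex. Young cultures had 64.8, 61.4, 57.4, 69.8 and 65.5 CPM without and 77.3, 85.0, 97.0, 105 and 97.5 CPM with LPS, without overlap, a 1.45-fold rise (log2 fold change 0.54, SE 0.09, adjusted p = 2.31e-05). The aged cultures had 65.5, 55.6, 62.1, 63.4 and 63.8 CPM without and 81.0, 56.5, 63.0, 57.0 and 72.8 CPM with LPS, which overlapped (log2 fold change 0.09, SE 0.09, adjusted p = 0.43). Only aged cultures 1 and 5 were clearly higher with LPS, culture 4 was lower, and cultures 2 and 3 were nearly level. The gene shares 91 exon bases with *Mrpl49* on the opposite strand, and the strand setting of the counting is not given in the sources used here.

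*Sel1l*, the adaptor that holds HRD1 in place, fell. Young cultures had 202, 198, 202, 209 and 189 CPM without and 162, 168, 169, 185 and 171 CPM with LPS, and the groups did not overlap (log2 fold change -0.23, SE 0.05, adjusted p = 6.21e-04). In aged cultures it was at 181, 176, 182, 172 and 191 CPM and 187, 149, 159, 165 and 168 CPM, with culture 1 higher under LPS (log2 fold change -0.12, SE 0.05, adjusted p = 0.0479), a call lost without replicate 2, 3 or 5 (adjusted p = 0.127 to 0.182). *Syvn1* and *Sel1l*, partners in a single complex, thus changed in opposite directions in young cultures.

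The derlins are membrane proteins through which clients leave the ER. *Derl2* was at 61.1, 56.7, 59.6, 54.3 and 54.8 CPM in young untreated and 69.8, 66.5, 71.2, 68.6 and 69.0 CPM in young LPS-treated cultures, which did not overlap (log2 fold change 0.27, SE 0.05, adjusted p = 7.03e-05), though with library sizes alone the value was 0.05 and did not pass. Aged cultures held 57.2, 50.5, 60.5, 55.7 and 56.1 CPM without and 63.2, 58.6, 64.0, 58.6 and 63.9 CPM with LPS (log2 fold change 0.14, SE 0.05, adjusted p = 0.0243), a call that was lost without replicate 1, 2 or 5 (adjusted p = 0.074 to 0.0977) and stood at -0.022 with library sizes alone. Its exons share 231 bases with *Mis12* on the opposite strand. *Derl1* did not pass in either response (-0.04 in young, adjusted p = 0.473, and 0.11 in aged cultures, adjusted p = 0.076). The lectin *Os9*, which delivers glycoproteins to the complex, was at -0.03 in young and -0.0044 in aged cultures, and the mannosidase-like *Edem1* at 0.18 (adjusted p = 0.0595, 0.0373 with the block) and 0.17 (adjusted p = 0.0783).

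The translocation genes changed by little and with little spread. *Sec61a1*, the pore subunit, rose from 291 ± 12.7 to 354 ± 11.1 CPM in young (log2 fold change 0.28, adjusted p = 1.99e-06) and from 314 ± 8.44 to 364 ± 12.0 CPM in aged cultures (log2 fold change 0.21, adjusted p = 1.06e-04), without overlap in either age. *Ssr3*, a subunit of the translocon-associated protein complex, rose in both ages as well (0.23 and 0.20, adjusted p = 8.19e-05 and 6.13e-04). With library sizes alone these values were 0.06 and 0.05 for *Sec61a1* and 0.01 and 0.04 for *Ssr3*, none of which passed. *Ssr2* passed in young cultures (log2 fold change 0.15, adjusted p = 0.0129, 0.0712 without replicate 3, and -0.073 with library sizes alone) and in aged cultures only with the block (log2 fold change 0.12, adjusted p = 0.0545, 0.0132 with the block). *Sec61b* did not pass in young (log2 fold change 0.13, adjusted p = 0.371) or aged cultures (log2 fold change 0.07, adjusted p = 0.666).

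**Figure D3:**
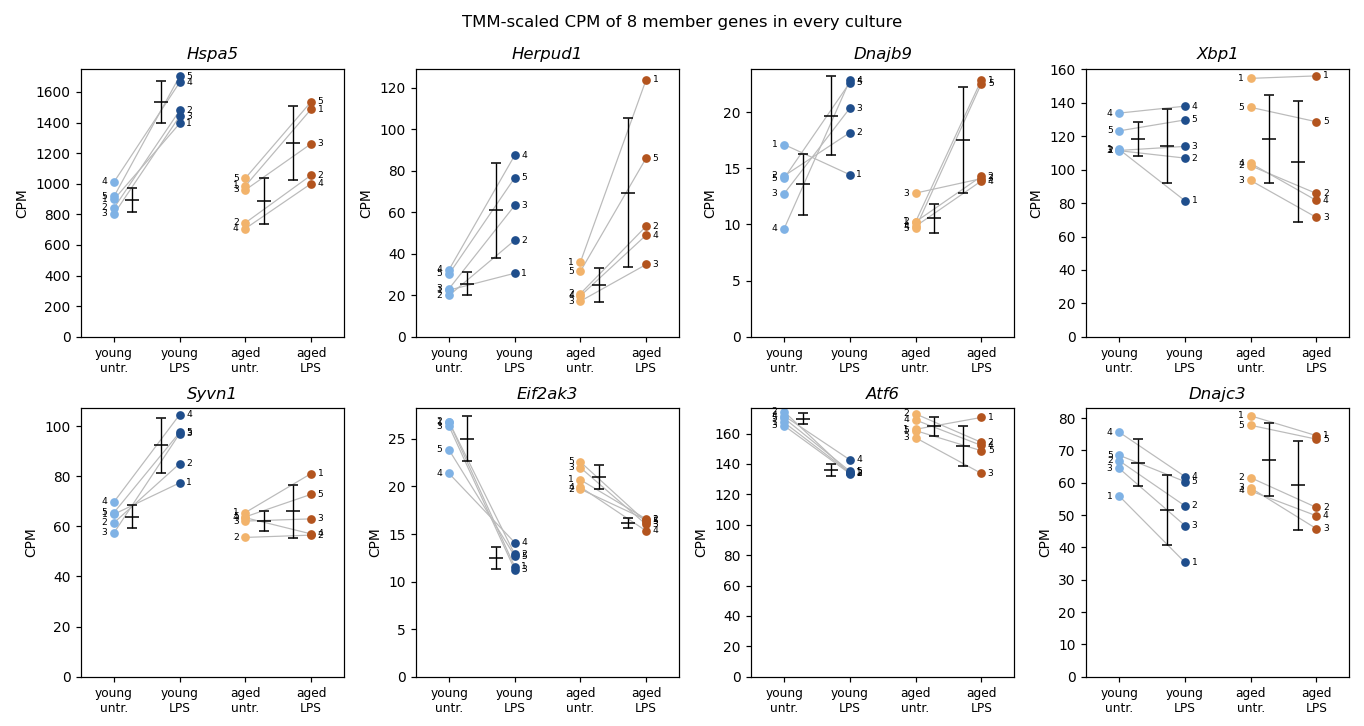
TMM-scaled CPM (vertical axes, from 0) of 8 genes in every culture of the 4 groups; points are cultures with their replicate numbers, grey lines join the untreated and LPS-treated culture of the same number and age, and bars give mean ± SD (n = 5). *Hspa5* and *Herpud1* were higher with LPS at every number in both ages, *Eif2ak3* lower at every number in both ages, and *Syvn1* at most modestly higher in aged cultures.

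The second question was whether aged and young cultures differed. Without LPS 3 of the 35 genes passed, 1 higher and 2 lower in aged cultures, which is 8.57% against 11.5% of all genes tested (3.71% higher and 7.81% lower). With LPS 7 passed, 4 higher and 3 lower, which is 20.0% against 29.0% of all genes (14.0% higher and 15.0% lower). No difference passed a log2 change of at least 0.5 in either comparison, where 3.71% and 10.1% of all genes did (0.68% and 3.73% as higher). The median difference of the 35 genes was -0.01 without LPS (-0.01 over all genes) and -0.0041 with LPS (0.0085 over all genes, and 0.088 with library sizes alone). Aged and young cultures did not overlap for 1 of the 35 genes without LPS (10.4% of all genes) and for 3 with LPS (14.8% of all genes). With the replicate block 4 passed without LPS (17.2% of all genes) and 9 with LPS (33.4% of all genes). The 2 comparisons share no library, but they are not independent. At a given age and number, the cultures without and with LPS tended to depart from their group means together. Over all genes tested, these departures correlated at a mean of 0.276 in young and 0.260 in aged cultures. A gene that passed in both comparisons was therefore not replicated independently.

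*Ssr1*, another subunit of the translocon-associated protein complex, was higher in aged cultures in both. Untreated young cultures had 514, 497, 451, 499.7 and 491 CPM and untreated aged ones 546, 566, 593, 516 and 568 CPM, without overlap (log2 fold change 0.18, SE 0.05, adjusted p = 0.0164). With LPS the values were 506, 478, 436, 489 and 516 CPM in young and 542, 569, 552, 539.6 and 565 CPM in aged cultures, again without overlap (log2 fold change 0.19, SE 0.05, adjusted p = 0.00511). In the LPS responses its log2 fold changes were -0.02 in young and -0.01 in aged cultures, and neither passed. The untreated call was lost without replicate 2, 3 or 5 (adjusted p = 0.0662 to 0.104) and the call with LPS without replicate 2 (adjusted p = 0.0585). *Os9* was lower in aged cultures in both comparisons. It measured 121, 104, 95.3, 93.1 and 85.6 CPM in young and 74.8, 77.3, 98.3, 79.0 and 77.0 CPM in aged untreated cultures. Aged culture 3 was above 3 of the young ones, so the groups overlapped (log2 fold change -0.30, SE 0.10, adjusted p = 0.0496). With LPS it was at 117, 99.1, 92.8, 86.9 and 94.6 CPM in young and 74.8, 73.7, 96.0, 79.1 and 81.4 CPM in aged cultures (log2 fold change -0.27, SE 0.10, adjusted p = 0.0394). Young culture 1 and aged culture 3 were the highest of their groups both without and with LPS. Both calls were lost without replicate 1, 2, 4 or 5 (adjusted p = 0.082 to 0.238 untreated and 0.0621 to 0.195 with LPS) and with library sizes alone (adjusted p = 0.0501 and 0.108).

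*Eif2ak3* was lower in aged than in young untreated cultures (log2 fold change -0.25, SE 0.07, adjusted p = 0.0239), a call lost without replicate 1, 2 or 3 (adjusted p = 0.0652 to 0.2), and higher in aged than in young LPS-treated ones (log2 fold change 0.37, SE 0.08, adjusted p = 0.00106). All 5 aged LPS-treated cultures, from 15.3 to 16.6 CPM, were above all 5 young ones, from 11.2 to 14.1 CPM. *Syvn1* was 1.40-fold lower in aged than in young LPS-treated cultures (log2 fold change -0.48, SE 0.09, adjusted p = 3.69e-04), with aged culture 1 inside the young range and the other 4 below it. *Atf6* was higher in aged LPS-treated cultures (log2 fold change 0.16, SE 0.05, adjusted p = 0.0174, 0.0558 to 0.0995 without replicate 1, 2 or 5). *Derl1* stood at 127, 120.2, 119, 131 and 133 CPM in young and 161, 139, 128, 140.1 and 145 CPM in aged LPS-treated cultures (log2 fold change 0.18, SE 0.05, adjusted p = 0.0113), 5 of 5 numbers higher in aged cultures, and lost its call without replicate 2 (adjusted p = 0.0718). Untreated, its values were 128, 127, 129, 129.6 and 135 CPM and 137, 134, 133, 128 and 129 CPM, which overlapped (log2 fold change 0.03, adjusted p = 0.81). *Derl2*, its paralog, was lower in aged LPS-treated cultures without overlap (log2 fold change -0.16, SE 0.05, adjusted p = 0.0187), but not without replicate 2 or 4 (adjusted p = 0.0564 to 0.0794) or with library sizes alone (adjusted p = 0.204). With library sizes alone, 6 of the 7 genes that then passed under LPS were higher and 1 lower, where 24.7% of all genes were higher and 10.6% lower. With the replicate block *Hspa13* also passed as lower in aged LPS-treated cultures (-0.15, adjusted p = 0.0479) and *Sec61a1* as higher in aged untreated ones (0.11, adjusted p = 0.0392).

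**Figure D4:**
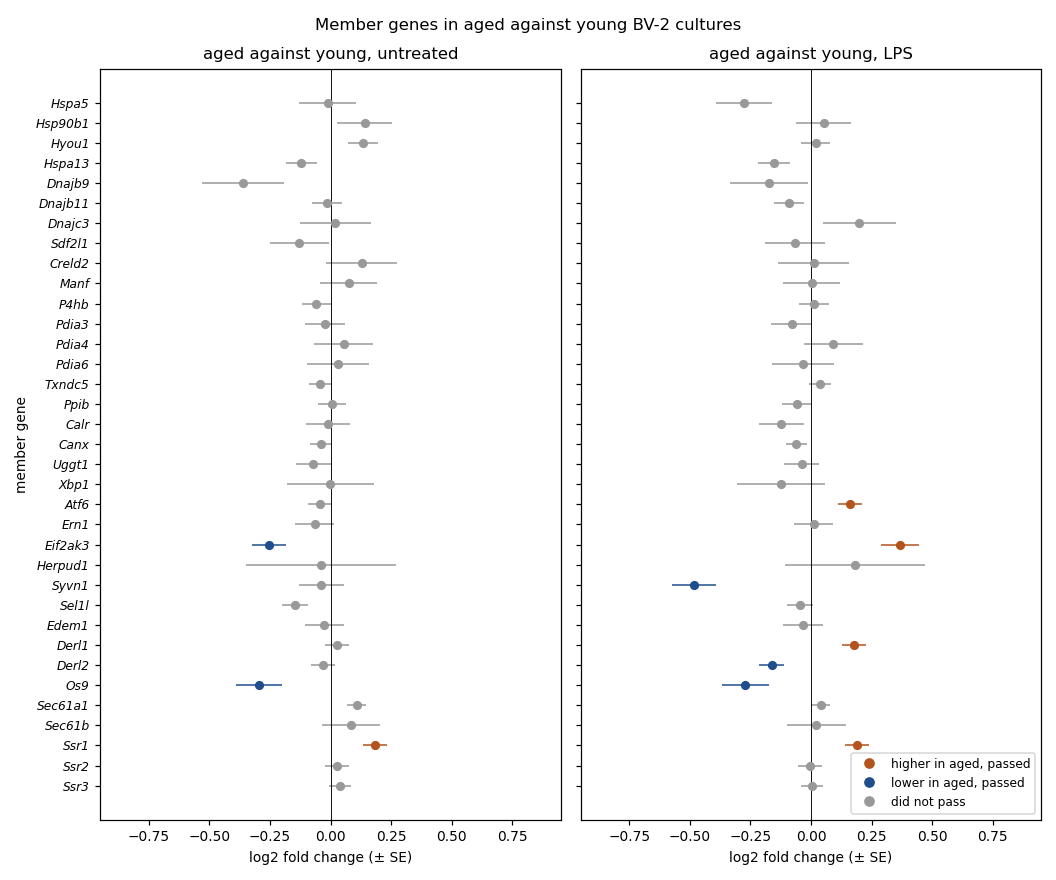
Log2 fold change of aged against young cultures (horizontal axes, bars of 1 SE) for each of the 35 genes, untreated on the left and LPS-treated on the right, with genes that passed in colour. All points but that of *Syvn1* with LPS lie within 0.4 of 0, *Ssr1* and *Os9* passed on both sides, and *Eif2ak3* passed as lower on the left and as higher on the right.

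The difference between the LPS responses of both ages was tested for each gene. It passed for 2 of the 35 genes, 1 higher and 1 lower in aged cultures, which is 5.71% against 6.39% of all genes tested (4.12% higher and 2.27% lower), and for 3 with the replicate block (9.03% of all genes). The median difference was -0.03 for the 35 genes and 0.02 over all genes. A difference of at least 0.5 was passed by 1 gene, which was higher (3.01% of all genes, 2.1% as higher). For *Eif2ak3* the fall was smaller in aged cultures by 0.62 on the log2 scale (SE 0.11, adjusted p = 0.00103), and it passed in every alternative at the threshold of 0.05, with an adjusted p of at most 0.0282 when a replicate was left out. For *Syvn1* the rise was smaller in aged cultures (log2 fold change -0.44, SE 0.13, adjusted p = 0.0425). This call was lost without replicate 2, 3, 4 or 5 (adjusted p = 0.124 to 0.187), without young untreated culture 1 (adjusted p = 0.0556) and with library sizes alone (adjusted p = 0.0767). *Atf6* had the next lowest adjusted p, with a difference of 0.20 (SE 0.07, adjusted p = 0.089) and passed with the replicate block (adjusted p = 0.0471). The difference did not pass for the 3 genes with the largest rises in aged cultures, with 0.22 (SE 0.42) for *Herpud1*, -0.26 (SE 0.16) for *Hspa5* and 0.19 (SE 0.23) for *Dnajb9*.

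Single cultures deviated from their group mean in many of the 35 genes at once. Of the 35 genes, 31 were above the group mean in aged LPS-treated culture 5, 30 in aged LPS-treated culture 1 and 29 in young LPS-treated culture 5. Only 3 were above it in aged untreated culture 4, 4 in aged LPS-treated culture 4 and 5 in young untreated culture 3. The median deviation of the 35 genes ran from -0.13 in aged LPS-treated culture 4 to 0.16 in aged LPS-treated culture 1. That over all genes tested stayed within -0.011 and 0.0069 on the log2 scale in every culture. Scaling and subtraction of the group mean hold the latter near 0, so it is no measure of how far a set of 35 genes can shift. Other sets of 35 genes were not examined, and whether such shifts are particular to these genes was not tested. Untreated and LPS-treated cultures of the same age and number tended to deviate to the same side. In aged cultures 32 of 35 genes did so at numbers 2 and 4, 31 at number 5, 26 at number 1 and 25 at number 3, and in young cultures between 24 and 30 genes did so at each number. The same count was not made over all genes. Over all genes tested, the deviations of such pairs correlated at a mean of 0.276 in young and 0.260 in aged cultures, so shared deviation was not limited to the 35 genes. Of the 35 genes, 9 deviated alike in all 10 such pairs: *Creld2*, *Derl2*, *Dnajb11*, *Dnajc3*, *Edem1*, *Hsp90b1*, *Manf*, *Pdia6* and *Sec61a1*. *Eif2ak3* and *Dnajb9* deviated alike in only 3 of 10. When same-numbered cultures of 1 age were paired in the fit, an alternative chosen after seeing these data, 25 genes passed in the LPS response of aged cultures in place of 13 (71.4%, against 64.1% of all genes under the same fit). It gave 26 in young cultures (74.3%, against 72.0% of all genes) and 4 for the difference of the responses (11.4%, against 16.9% of all genes).

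*Xbp1* and *Dnajc3*, chosen after their values were seen, are examples. In aged cultures 1 and 5 *Xbp1* was at 155 and 137 CPM untreated and 156 and 129 CPM with LPS, whereas cultures 2, 3 and 4 lay between 93.6 and 104 CPM untreated and between 71.5 and 85.8 CPM with LPS. *Dnajc3* split the same way, with cultures 1 and 5 between 73.5 and 80.7 CPM and the other 3 between 45.8 and 61.6 CPM over both aged groups. What these cultures shared was not tested.

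Genes with ERSE or ERSE-II in the promoter window did not share a single response. Among the 10 such genes 5 rose and 1 fell with LPS in young cultures (median log2 fold change 0.26), against 4 and 3 of the 18 genes whose window held neither (median 0.02). In aged cultures 3 of the 10 rose and none fell (median 0.11), against 4 and 3 of the 18 (median -0.01). Genes with the element thus ranged from *Herpud1* at 1.26 and *Hspa5* at 0.78 to *Pdia6* at 0.04 and *Dnajc3* at -0.36 in young cultures. Over all genes, 31.2% were higher and 33.5% lower in young cultures, and 27.5% were higher and 26.9% lower in aged cultures. Genes without a window are in neither group. Of those, *Hyou1*, *Hspa13*, *Manf*, *Sec61a1* and *Ssr2* rose in young cultures, *Atf6* fell and *Derl1* did not pass. These counts are given without a test.

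Further genes of the same pathways were counted in 4 lists, to be read against 31.2% of all genes higher and 33.5% lower with LPS in young cultures and 27.5% higher and 26.9% lower in aged cultures. Of 19 other UPR signalling genes tested, 13 rose and 3 fell with LPS in young and 13 rose and 1 fell in aged cultures, which is 84.2% and 73.7% called against 64.6% and 54.4% of all genes. Their median log2 fold changes were 0.77 and 0.67, and 11 rose and 3 fell in both ages with library sizes alone. They included the stress-induced transcription factor *Atf3*, from 77.2 ± 8.28 to 392 ± 31.9 CPM in young (2.35, SE 0.08, adjusted p = 2.68e-16) and from 63.0 ± 3.96 to 256 ± 32.8 CPM in aged cultures (2.03, SE 0.08, adjusted p = 5.47e-15). *Ppp1r15a*, the regulatory subunit that reverses the phosphorylation made by PERK, rose by 2.23 on the log2 scale in young cultures (SE 0.10, adjusted p = 1.05e-14). Its aged means went from 11.9 to 41.0 CPM. *Trib3*, a pseudokinase induced by ATF4 and CHOP, rose by 2.16 on the log2 scale in aged cultures (SE 0.38, adjusted p = 4.24e-05). Its means went from 8.15 ± 3.18 to 36.1 ± 24.2 CPM in aged and from 7.62 ± 1.66 to 20.4 ± 10.1 CPM in young cultures. *Chac1*, a glutathione-degrading enzyme, passed in both ages at low levels, from 0.341 ± 0.254 to 1.69 ± 0.816 CPM in young and from 0.643 ± 0.546 to 2.58 ± 1.99 CPM in aged cultures. Several of these genes are also known as targets of amino acid shortage or of inflammatory signalling.

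Of 27 other ERAD genes tested, 14 rose and 7 fell in young and 14 rose and 2 fell in aged cultures (77.8% and 59.3% called, medians 0.27 and 0.24), while library sizes alone gave 10 and 10 in young and 7 and 8 in aged cultures. *Selenos*, a selenoprotein that links the derlins to the ATPase p97, rose by 0.85 on the log2 scale in young (SE 0.07, adjusted p = 6.54e-10) and 0.52 in aged cultures (SE 0.07, adjusted p = 1.80e-06). *Vcp*, the gene of p97, rose by 0.37 on the same scale in aged cultures (SE 0.10, adjusted p = 0.00413), and its young means went from 201 to 286 CPM. *Ngly1*, which removes sugar chains from exported proteins, rose by 0.55 in aged cultures (SE 0.09, adjusted p = 2.85e-05), and its young means went from 12.3 to 15.1 CPM. The conjugating enzyme *Ube2j2* rose by 0.58 in young cultures (SE 0.06, adjusted p = 6.88e-09), and its aged means went from 61.4 to 78.8 CPM. The ligase *Tmem129* fell by 0.65 on the log2 scale in young cultures (SE 0.07, adjusted p = 1.40e-08), and its aged means went from 24.3 to 20.0 CPM.

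Of 31 other genes of translocation, signal peptidase and oligosaccharyltransferase, 8 rose and 3 fell in young and 8 rose and 2 fell in aged cultures (35.5% and 32.3% called, below the shares of all genes, medians 0.07 and 0.04), but 4 rose and 15 fell and 3 rose and 10 fell with library sizes alone. The largest rise in both ages was that of *Serp1*, which stabilises membrane proteins at the channel, with a log2 fold change of 0.65 in young (SE 0.06, adjusted p = 2.94e-09) and 0.38 in aged cultures (SE 0.06, adjusted p = 1.33e-05). The signal recognition particle receptor subunits *Srpr* (0.46 in young and 0.34 in aged cultures) and *Srprb* (0.36 in aged cultures) and the channel-associated *Tram2* (0.48 in young cultures) followed. Means of *Srprb* went from 76.2 to 98.4 CPM in young and those of *Tram2* from 16.1 to 20.3 CPM in aged cultures. Of 30 other folding enzymes and chaperones, 8 rose and 7 fell in both ages (50% called in each), and 3 rose and 17 fell in young and 3 rose and 13 fell in aged cultures with library sizes alone. *Ppic*, the prolyl isomerase cyclophilin C, rose from 16.2 ± 3.37 to 29.3 ± 5.67 CPM in young and from 2.57 ± 0.469 to 4.56 ± 1.32 CPM in aged cultures, and *Cnpy4* fell from 28.4 ± 2.52 to 15.9 ± 1.36 CPM in young cultures (adjusted p = 3.96e-09). *Clgn* and *Fkbp7*, the other changes of this list by size, had group means at or below 1.15 CPM.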

How the data were processed

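Messenger RNA of 20 BV-2 cultures was made into stranded libraries with an Illumina kit and sequenced paired-end on an Illumina NextSeq instrument. Alignment by the authors used STAR 2.6.1d and the GRCm38 build, and featureCounts 1.5.1 gave the deposited values, which are whole-number counts per Ensembl gene without normalization. How strand, multiply aligned reads and shared exons were handled is not given in the sources used here. Groups and replicate numbers came from the sample labels. Symbols, positions and exon lengths came from GENCODE vM21, which named 55227 of the 55487 identifiers. The 35 genes and the further lists were chosen with earlier results of these data known.

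Counts were fitted with edgeR's quasi-likelihood test (edgeR 4.0.16, R 4.3.3) in a model of the 4 groups over 20 libraries, after TMM scaling and filterByExpr, and p-values were adjusted over all 12799 genes. CPM used TMM-scaled library sizes. Levels per kilobase divided CPM by the union of exons. Genes with an adjusted p below 0.05 are said to rise, fall or pass. SEs are those of the log2 fold changes.

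Replicate numbers are batch numbers in the labels, and same-numbered cultures deviated together across genes, with a mean correlation of 0.146 over all pairs of groups and of 0.276 and 0.260 between untreated and LPS-treated young and aged cultures (single pairs -0.21 to 0.39). Results with the number as a block are given where they change a call. No library was a copy of another: over 40 pairs from the same group, chi-square per degree of freedom ran from 2.31 to 24.4. Values in every culture are given for the 4 sensor and factor genes, for *Hspa5*, and for the 3 largest changes that passed in each direction of each comparison; of further lists, counts and the 3 largest changes in each LPS response.

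In simulated counts with 200 of 12641 genes changed 2-fold between untreated ages, edgeR recovered 195 with 5 false calls. The changed genes were drawn from those with higher mean counts, and no deviation shared by replicate number was simulated. Smaller changes, as most of those described here, were not simulated, so their recovery is not known. Alternatives were DESeq2 1.42.0, the replicate block, other scalings and filters, only the groups compared, stricter thresholds and each replicate left out. A fit without young untreated culture 1 and a block per age and number were chosen later, after seeing the data.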

Additional observations from a re-analysis of the deposited data

Results flagged for a closer look

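In 6 of 140 sets of 5 cultures (35 genes in 4 groups) 1 culture stood apart from the other 4 by Dixon's test at the 95% level, which by chance flags about 1 in 20 groups. Aged untreated culture 3 was the highest of its group for 3 genes, *Dnajb9* with 12.8 CPM (next 10.2 CPM), *Os9* with 98.3 CPM (next 79.0 CPM) and *Ssr3* with 293 CPM (next 275 CPM). *Txndc5* was lowest in aged untreated culture 4 with 235 CPM (next 249 CPM). *Uggt1* was highest in young LPS-treated culture 1 with 254 CPM (next 212 CPM), and *Atf6* in young LPS-treated culture 4 with 143 CPM (next 135 CPM).

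The LPS responses of aged and young cultures differed for *Eif2ak3* by 0.62 on the log2 scale, a smaller fall in aged cultures, and for *Syvn1* by -0.44, a smaller rise in aged cultures, both by the test of the difference in edgeR.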

How the results depend on the processing

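Depth was 11371508 to 16829292 counts, and the fewest counts of any of the 35 genes in a library were 117. How much of the spread between cultures came from counting was not tested. Directions were compared where a gene passed in at least 1 fit.

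Blocking on the replicate number, 4, 22, 16, 9 and 3 genes passed in place of 3 (aged against young, untreated), 19 (LPS, young), 13 (LPS, aged), 7 (aged against young, LPS) and 2 (difference of the responses). The block changed no other call than the 10 gained ones named above and lost none. DESeq2 with the block gave 5 for the untreated comparison. The block within each age gave 25 for the aged LPS response and 4 for the difference. A threshold of 0.01 left 0 genes untreated, 7 in the aged LPS response, 3 between LPS-treated ages and 1 for the difference. A change of at least 0.5 left 0, 5, 3, 0 and 1. Leaving out each replicate in turn gave 0 (replicate 2) to 3 genes untreated, 16 to 21 and 9 to 11 in the young and aged LPS responses, 2 (replicate 2) to 7 between LPS-treated ages and 1 to 2 for the difference (1 without replicate 2, 3, 4 or 5). Without young untreated culture 1, 1 gene was left untreated and 1 for the difference. Shares of all genes were not counted for DESeq2 with the block, the threshold of 0.01 or the fits with cultures left out. Whether all genes lost or gained calls to the same extent is therefore not known. With library sizes alone 7 values changed sign: *Hspa13* (-0.030 in young and -0.0030 in aged cultures), *Ppib* (-0.015 and -0.022), *Canx* (-0.13 in young), *Ssr2* (-0.073 in young) and *Derl2* (-0.022 in aged), which follows from the shift of all genes by that scaling. The causes of the other changes were not tested. The fit on only the groups compared was not run for the difference.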

Other observations

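Heat shock proteins of the cytosol, which fold proteins outside the ER, were counted as a further list. Of 17 tested, 14 rose and 1 fell in young cultures and 12 rose and 1 fell in aged ones, which is 88.2% and 76.5% called against 64.6% and 54.4% of all genes, with median log2 fold changes of 0.39 and 0.21. With library sizes alone 10 rose and 3 fell in young and 6 rose and 4 fell in aged cultures. *Dnajb4*, an Hsp40 co-chaperone, rose from 11.6 ± 1.75 to 30.0 ± 5.05 CPM in young (1.37, SE 0.12, edgeR adjusted p = 6.40e-10) and from 12.2 ± 1.22 to 19.6 ± 2.32 CPM in aged cultures (0.68, SE 0.12, edgeR adjusted p = 3.71e-05). On the log2 scale *Dnaja2* rose by 0.88 and 0.56. *Stip1*, which links Hsp70 to Hsp90, rose by 0.60 in young cultures, and its aged means went from 423 to 560 CPM. *Hsp90aa1* rose by 0.41 in aged cultures, and its young means went from 1406 to 2022 CPM. The rise was smaller in aged cultures for 4 of the 17 genes (23.5%), *Dnaja1*, *Dnaja2*, *Dnajb4* and *Dnajb6*, by the test of the difference (edgeR). Over all genes, 2.27% passed that test as lower in aged cultures and 6.39% in either direction.

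Among genes chosen after their values were seen, *Ddit3* (CHOP), the factor downstream of PERK and ATF4, had changes of 1.81 in young (SE 0.28, edgeR adjusted p = 4.86e-06) and 1.84 in aged cultures (SE 0.28, edgeR adjusted p = 6.40e-06), and *Atf4* of 0.77 (SE 0.15, edgeR adjusted p = 8.79e-05) and 0.74 (SE 0.15, edgeR adjusted p = 1.89e-04), in the same libraries in which *Eif2ak3* fell. The symbol *Ddit3* has a pair of gene models in the annotation, of which the longer was used. *Atf6b*, the paralog of *Atf6*, rose by 0.82 in young and 0.67 in aged cultures (edgeR adjusted p = 4.21e-13 and 2.53e-11), while *Atf6* fell.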
